A study of Mus musculus with 20 samples.

Results

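High fat feeding at low dietary protein was examined by comparing the left ventricle of HF + LP mice with that of LP mice. These groups were chosen by diet alone, and they hold 10 of the 20 mice sequenced, 5 in each group. Both groups received casein at 5% of the diet, and the HF + LP diet held more lard and less corn starch than the LP diet, so fat and starch changed together. All mice were male and, per the labels, 18 months old, an age that differs from the one in the methods of the study. The other 10 mice, 5 fed normal protein (NP) and 5 fed high fat with normal protein (HF), show the same change of fat at normal casein, and they share no mouse with HF + LP or LP. Gene expression was measured by QuantSeq, a 3′ mRNA sequencing method in which each transcript gives reads near its poly(A) tail, and the deposited values are raw counts per gene. Mice are named here by group and animal number, such as LP mouse 13.

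The heart takes most of its ATP from fatty acids. They enter cardiomyocytes through carriers such as CD36, and FABP3 binds them inside the cell. They reach the mitochondrial matrix through the carnitine shuttle (CPT1, SLC25A20, and CPT2) and are shortened by beta-oxidation. Auxiliary enzymes such as DECR1 and ECH1 serve unsaturated chains, and peroxisomes very long chains. Many of these genes are targets of the PPAR nuclear receptors, which bind fatty acids and heterodimerize with RXR. Dietary fat is known to raise such genes in the rodent heart, whereas amino acid supply acts on other sensors, among them mTORC1, GCN2, and the AMPK pathway.

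HF + LP mice were heavier than LP mice. Body weight was 48.6 ± 5.93 g in HF + LP and 32.6 ± 2.69 g in LP (mean ± SD, n = 5), a difference of 15.9 g (p = 0.00794 by a two-sided exact permutation test, which cannot give a lower p with 5 mice in each group). The lightest HF + LP mouse weighed 41.2 g and the heaviest LP mouse 36.9 g, so that body weight and diet cannot be told apart in these groups. Total counts ranged from 13663663 to 23331907 in LP and from 14937961 to 18762093 in HF + LP. The share of counts from mitochondrially encoded genes was 40.3 ± 3.94% in LP and 43.3 ± 3.37% in HF + LP, which did not differ beyond the spread between mice (exact permutation test, p = 0.214). Cardiomyocyte markers summed to between 42246 and 58372 CPM (counts scaled to a common library total) in LP and between 41259 and 50521 CPM in HF + LP, so the defining cell type of the labelled tissue was present in every library.

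LP mice 13 and 20 stood apart from the other LP mice in markers of tissues that lie next to or around the ventricle. The 10 adipocyte markers, which include Adipoq, the adipokine adiponectin, and Ucp1, the uncoupling protein of brown fat, summed to 980 CPM in LP mouse 13 and to 370 CPM in LP mouse 20. The other LP mice had between 11.3 and 17.1 CPM, and HF + LP mice between 2.97 and 33.7 CPM. In single genes, Ucp1 was at 6037 normalized counts in LP mouse 13 and at 952 in LP mouse 20, against 0 to 188 in HF + LP mice, where mouse 4 had none. Lymphocyte markers summed to 1096 CPM in LP mouse 20 and 134 CPM in LP mouse 13, against 12.3 to 38.2 CPM in HF + LP. Atrial and conduction markers summed to 18409 CPM in LP mouse 13, to 5575 CPM in LP mouse 15, and to 2012 CPM in LP mouse 20, whereas LP mice 2 and 5 had 431 and 250 CPM. HF + LP mouse 3 also carried atrial transcripts, with 5542 CPM, against 148 to 1417 CPM in the rest of its group. In cardiomyocyte markers, LP mice 13 and 20 were the lowest of LP, at 42246 and 42519 CPM, against 50709 to 58372 CPM in the other LP mice. The plot of marker lists by mouse shows these libraries. Results are therefore given with all 10 mice and, for gene lists and genes that moved most, without LP mice 13 and 20 as well. In bulk tissue, fewer cells of a type and less RNA per cell cannot be told apart.

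**Figure D1:**
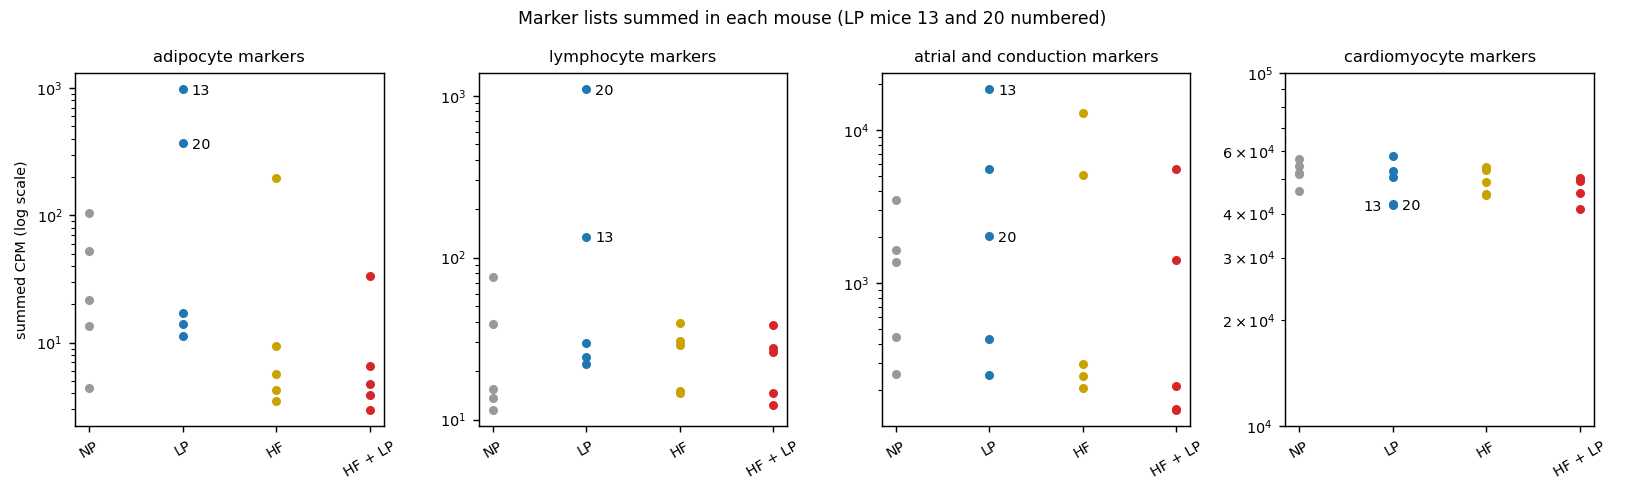
Summed CPM (log scale) of adipocyte, lymphocyte, atrial and conduction, and cardiomyocyte markers in each of the 20 mice, 1 point per mouse, by diet group, with LP mice 13 and 20 numbered. Adipocyte markers reach 980 and 370 CPM in those LP mice and stay at or below 33.7 CPM in every HF + LP mouse, while cardiomyocyte markers lie between 41259 and 58372 CPM in both groups.

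The number of genes that high fat at low protein changed beyond the spread between mice depended on the test. Calls were made with edgeR's quasi-likelihood test, at a p under 0.01 after Benjamini-Hochberg adjustment, among genes whose normalized count averaged over 50, and 14 of the 13991 genes tested passed. Of these, 7 were higher (0.05%) and 7 lower (0.05%). The higher genes included Decr1, Rbp7, Fbp2, Hsd17b11, Pex11a, and Gm13340, and the lower genes were 5430431A17Rik, Kmt2d, Gm42972, Gm38380, Lrrc4b, Gm42432, and Neat1. Below the adjustment, 876 genes were higher (6.26%) and 1351 lower (9.66%) at an unadjusted p under 0.05. The normalized counts of HF + LP and LP mice did not overlap for 128 genes that were higher (0.915%) and for 133 that were lower (0.951%), and all 14 called genes were among them. The number of calls rested on single mice. It was 1 without HF + LP mouse 2 or without HF + LP mouse 4, 2 without LP mouse 15, 3 without LP mouse 13, 5 without LP mouse 2, 6 without LP mouse 20, and 8 without HF + LP mouse 1, but 10 without HF + LP mouse 5, 12 without LP mouse 5, and 16 without HF + LP mouse 3. It was 4 without LP mice 13 and 20 together, all 4 of them lower and all among the 14, and 0 when edgeR was fitted to the 2 groups alone, where 1407 genes had an unadjusted p under 0.05 and DESeq2 called 36. With all 20 mice, as in the edgeR fit, DESeq2 called 84 genes, 42 higher and 42 lower. No higher gene was called by edgeR without LP mouse 2, 15, or 20, or without HF + LP mouse 2, 4, or 5.

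**Figure D2:**
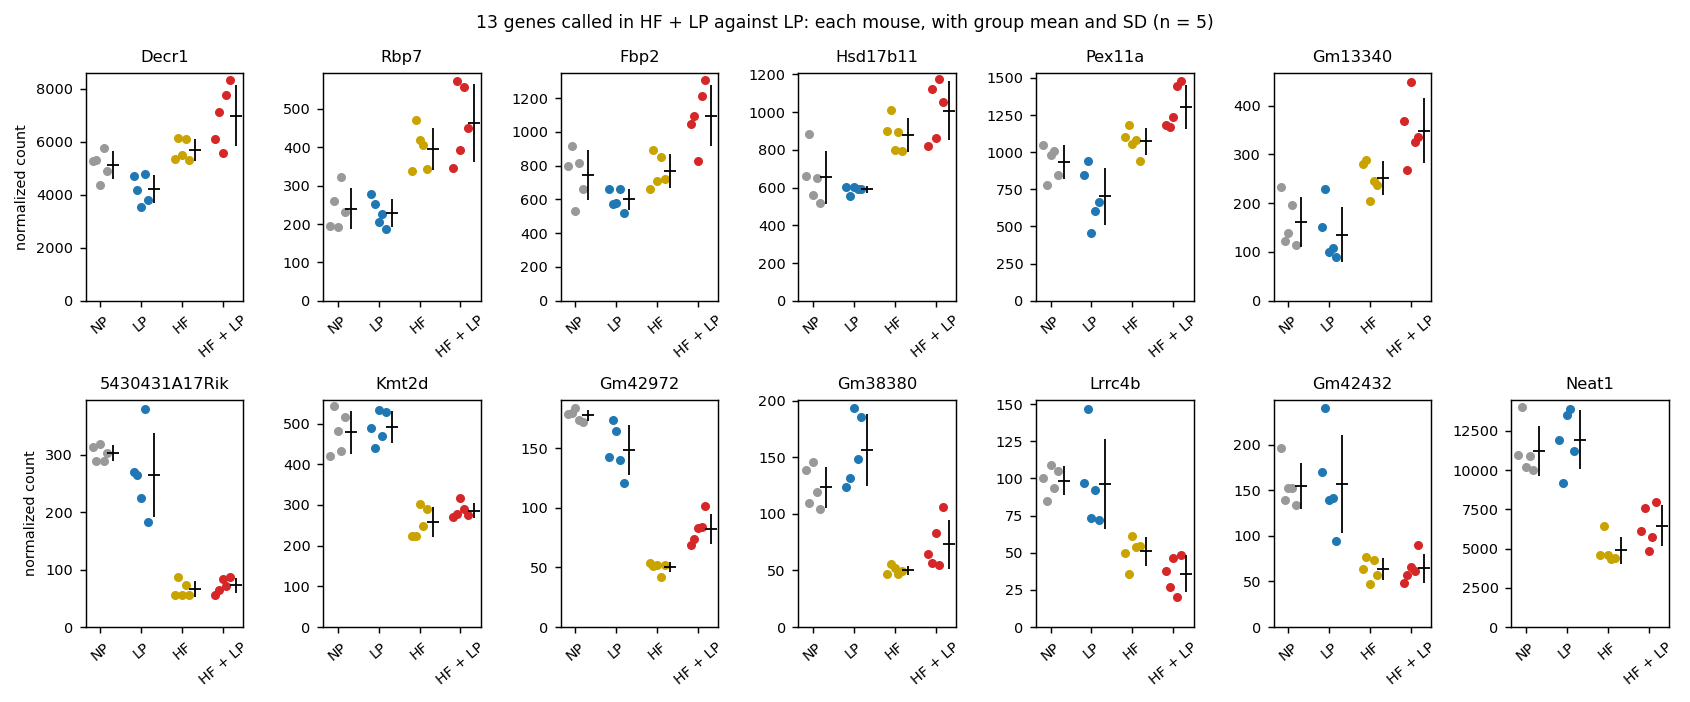
Normalized counts of 13 called genes in each mouse of the 4 diet groups (linear axes from 0), with the group mean and SD (n = 5). In every panel the 5 HF + LP mice lie on one side of the 5 LP mice, for example at 829 to 1308 against 520 to 664 for Fbp2.

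The called genes that rose included genes of fatty acid oxidation, peroxisomes, and lipid droplets. Decr1, the mitochondrial 2,4-dienoyl-CoA reductase needed to oxidize polyunsaturated fatty acids, was at 4695, 4190, 3553, 4790, and 3816 normalized counts in the LP mice and at 6121, 7132, 5564, 7772, and 8347 in the HF + LP mice. The groups did not overlap, and LP mouse 15 and HF + LP mouse 3 were the nearest to each other. The log2 fold change was 0.73 ± 0.12 (adjusted p = 0.00726). Pex11a, a peroxisomal membrane protein of peroxisome division, rose by 0.89 ± 0.15 on the log2 scale (adjusted p = 0.00839), from 459 to 940 normalized counts in LP to 1169 to 1481 in HF + LP. Hsd17b11, a dehydrogenase found on lipid droplets, was at 557 to 605 normalized counts in LP and 822 to 1174 in HF + LP, a log2 fold change of 0.77 ± 0.13 (adjusted p = 0.00839). Its LP mice lay closer together than those of any other called gene that rose, while its HF + LP mice were spread.

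Fbp2, the muscle fructose-1,6-bisphosphatase, was at 520 to 664 normalized counts in LP mice and 829 to 1308 in HF + LP mice (log2 fold change 0.87 ± 0.14, adjusted p = 0.00726). Rbp7, a cellular retinol-binding protein, was at 186 to 278 in LP and 345 to 574 in HF + LP (1.02 ± 0.17, adjusted p = 0.00726). Gm13340 is an unprocessed pseudogene at chr2:22588103-22589647 (GRCm38), which lies within Myo3a on the opposite strand. It rose by 1.37 ± 0.24 on the log2 scale (adjusted p = 0.009), and its value is uncertain because the reads of a pseudogene can be shared with near-identical copies. Without LP mice 13 and 20, the log2 fold changes of these 6 genes lay between 0.61 for Decr1 and 1.08 for Gm13340, and their adjusted p between 0.0658 and 0.144. Each of the 6 also lost its call without 8 or 9 of the 10 mice left out in turn, with voom, and with the library number as a covariate, and each kept its direction.

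The next 5 higher genes in rank, 3 of them genes of fatty acid transport or oxidation, missed the threshold. Slc25a20, the carnitine-acylcarnitine translocase of the inner mitochondrial membrane, was at 1393 to 2107 normalized counts in LP mice and 2592 to 2943 in HF + LP mice (log2 fold change 0.60 ± 0.11, adjusted p = 0.0117). Ech1, a dienoyl-CoA isomerase of peroxisomes and mitochondria, was at 7803 to 14173 in LP and 15948 to 27773 in HF + LP (0.94 ± 0.17, adjusted p = 0.0117). Cd36, the fatty acid translocase, was at 5655 to 9054 in LP and within the narrow range of 10167 to 10719 in HF + LP (0.55 ± 0.11, adjusted p = 0.0226). Egln3, a prolyl hydroxylase that acts on hypoxia-inducible factors, had a log2 fold change of 1.111 ± 0.20 (adjusted p = 0.0125), and Tesc, a calcium-binding protein, one of 0.99 ± 0.19 (adjusted p = 0.0226). The groups did not overlap for any of these 5 genes.

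PPAR and RXR bind repeats of the motif AGGTCA, and the promoters of 11 higher genes, those named above, were searched for it because many of them are known PPAR targets. RefSeq promoter sequences (GRCm38.p6, 250 bases before to 50 after the start of transcription) were matched for 9 of the 11 genes. AGGTCA on either strand was found in 1 of these 9, Cd36, against 16.3% of all 32851 promoters. The direct repeat of PPAR response elements in a relaxed form was found in 0 of the 9, against 2.14% of all. Genes were counted if any of their promoters matched, whereas the shares are of single promoters, so the measures differ. The matched Cd36 window is shown, with the match in capitals, which lies on the opposite strand 228 bases before the start of transcription (chr5:17835847-17836146, minus strand, written 5′ to 3′ in the direction of the gene). This window lies inside the annotated gene (chr5:17781690-17888801), so its start is not the outermost start of Cd36.
Cd36: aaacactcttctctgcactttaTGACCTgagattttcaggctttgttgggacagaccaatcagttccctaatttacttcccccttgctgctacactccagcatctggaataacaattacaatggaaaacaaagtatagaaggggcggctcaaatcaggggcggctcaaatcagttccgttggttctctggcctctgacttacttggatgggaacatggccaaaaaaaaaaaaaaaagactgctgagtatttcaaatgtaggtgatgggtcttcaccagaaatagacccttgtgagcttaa
A match to these letters is a description of the window, and enhancers outside it were not searched.

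Of the 7 called genes that fell, 5 were long non-coding RNAs or transcripts without a known product. 5430431A17Rik, a lincRNA at chr7:44473538-44486138, plus strand, was at 270, 264, 224, 379, and 183 normalized counts in LP mice 2, 5, 13, 15, and 20, and at 56.2, 64.1, 83.7, 71.7, and 86.6 in HF + LP mice 1 to 5. The highest HF + LP mouse was below the lowest LP mouse by more than the whole HF + LP range. Its log2 fold change was −1.86 ± 0.18 (adjusted p = 1.78e-05), and it stayed called without any single mouse, at −1.97 to −1.69, and without LP mice 13 and 20 together. Lrrc4b, a leucine-rich repeat protein of synapses, lies 10187 bases away from it on the same strand and also fell. It was at 71.8 to 147 in LP mice and 20.2 to 48.5 in HF + LP mice (−1.41 ± 0.23, adjusted p = 0.00726).

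Kmt2d, a methyltransferase of histone H3 lysine 4 at enhancers, was at 490, 441, 533, 469, and 530 normalized counts in the LP mice and at 271, 277, 318, 290, and 276 in the HF + LP mice. Both groups were tight, and the gap between them was wider than the range within either. The log2 fold change was −0.78 ± 0.11 (adjusted p = 0.00246), and without LP mice 13 and 20 it was −0.71 with an adjusted p of 0.0152. Neat1, the long non-coding RNA that scaffolds nuclear paraspeckles, was at 9191 to 13891 in LP and 4837 to 7975 in HF + LP (−0.89 ± 0.15, adjusted p = 0.009), and without LP mice 13 and 20 at −0.86 with an adjusted p of 0.0658.

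Gm42972, Gm38380, and Gm42432 are annotated only as TEC, transcripts that still await experimental evidence, and each lies within a larger protein-coding gene on the same strand. Gm42972, within Ank2 at chr3:127266673-127272289, was at 121 to 173 normalized counts in LP and 68.7 to 101 in HF + LP (−0.85 ± 0.12, adjusted p = 0.00388), while Ank2 itself had a log2 fold change of −0.25 (adjusted p = 0.426). Gm38380, within Ncoa2, was at −1.10 ± 0.18 (adjusted p = 0.00726, or 0.0746 without LP mice 13 and 20), and Ncoa2 at −0.09 (adjusted p = 0.704). Gm42432, within Map4, was at −1.28 ± 0.22 (adjusted p = 0.00839), and Map4 at 0.20 (adjusted p = 0.599). Since it is not known how overlapping genes were counted, the reads of these transcripts and of their host genes may not be fully separated. Over the whole table, 5 of 1130 long non-coding or TEC transcripts were called lower and 0 higher, and 138 (12.2%) were lower at an unadjusted p under 0.05, against 1180 of 12533 protein-coding genes (9.42%). Their median log2 fold change was −0.12, against −0.03 for protein-coding genes, and without LP mice 13 and 20 these medians were −0.17 and −0.00060.

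Other lower genes just missed the threshold. Abat, the GABA transaminase, was at 111 to 145 normalized counts in LP mice, at 59.8 to 72.3 in HF + LP mice 1 to 3, and at 25.8 and 24.7 in HF + LP mice 4 and 5 (log2 fold change −1.37 ± 0.24, adjusted p = 0.0117). Egf, the growth factor precursor, was at 82.1 to 136 in LP and 47.4 to 61.6 in HF + LP (−0.97 ± 0.19, adjusted p = 0.0226), and Fam234b was at 54.5 to 103 and 30.2 to 45.4 (−0.99 ± 0.19, adjusted p = 0.0226). Bmp10, a ligand made by atrial cardiomyocytes, was at 13692, 4485, and 1566 normalized counts in LP mice 13, 15, and 20, but at 0 and 1.03 in LP mice 2 and 5, below all HF + LP mice (3.09 to 16.7). Its log2 fold change of −8.61 ± 1.64 (adjusted p = 0.0224) thus came from 3 LP libraries, and the groups overlapped. Those 3 libraries had the most atrial transcripts of LP. HF + LP mouse 3, with atrial markers at 5542 CPM, had Bmp10 at 6.66 normalized counts, and HF mouse 1, at 12926 CPM, had it at 44.5. The part of atrial transcripts in this difference was not tested.

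Gene lists show how far the pattern extended beyond the called genes. A gene can be in more than 1 list, so the counts of different lists are not independent. Lists were not tested as sets, and their counts are read against the 6.26% of all genes that were higher and the 9.66% that were lower at an unadjusted p under 0.05. Without LP mice 13 and 20, these shares over all genes were 2.69% higher and 4.81% lower, and counts without those mice are read against them. Of 39 PPAR-responsive genes tested, 3 were called, Decr1 and Pex11a among them, 18 were higher at an unadjusted p under 0.05 and 1 was lower, and the median log2 fold change was 0.30, against −0.03 over all genes. Without LP mice 13 and 20 the counts were 16 and 0, with a median of 0.36. In 9 of the 39 genes every HF + LP mouse was above every LP mouse, as in 0.915% of all genes.

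Mitochondrial beta-oxidation was represented by 23 genes, of which 12 were higher at an unadjusted p under 0.05 and 0 lower, with a median log2 fold change of 0.28. Besides Decr1 and Slc25a20 these included Acaa2, the thiolase of the last step, at 9691 to 13334 normalized counts in LP and 12827 to 22539 in HF + LP (0.61 ± 0.14, adjusted p = 0.0548). Cpt2, the inner carnitine palmitoyltransferase, was at 1612 to 2105 in LP and 1903 to 3296 in HF + LP, where mouse 3 alone fell within the LP range (0.55 ± 0.13, adjusted p = 0.0743). Without LP mice 13 and 20, 6 of the 23 genes were higher and 0 lower, with a median of 0.24. Of 19 genes of peroxisomal oxidation, 6 were higher and 1 lower at that p, with a median of 0.14 (5 and 0 without LP mice 13 and 20, with a median of 0.08). Scp2, a sterol carrier with thiolase activity, was at 572 to 933 normalized counts in LP and 924 to 1571 in HF + LP (0.55 ± 0.14, adjusted p = 0.0828).

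Fatty acid uptake and lipid droplet genes had a lower median, and it moved without LP mice 13 and 20. Of 35 genes, 10 were higher and 3 lower at an unadjusted p under 0.05, with a median of 0.02, and without LP mice 13 and 20 the counts were 6 and 1 with a median of 0.11. Fabp3, the heart fatty acid-binding protein, was at 23444 to 54411 normalized counts in LP and 57560 to 87059 in HF + LP (0.84 ± 0.19, adjusted p = 0.055). Plin5, a lipid droplet coat protein of oxidative tissue, was at 1064 to 2054 in LP and 1981 to 3440 in HF + LP (0.75 ± 0.19, adjusted p = 0.0836), and Mgll, the monoacylglycerol lipase, at 3107 to 4010 and 4090 to 5405 (0.49 ± 0.13, adjusted p = 0.102). Pdk4, the kinase that restrains pyruvate dehydrogenase, was at 63.0 to 562 in LP and 176 to 910 in HF + LP, and the spread within the groups exceeded the difference (0.89 ± 0.88, adjusted p = 0.646, and 1.99 without LP mice 13 and 20).

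**Figure D3:**
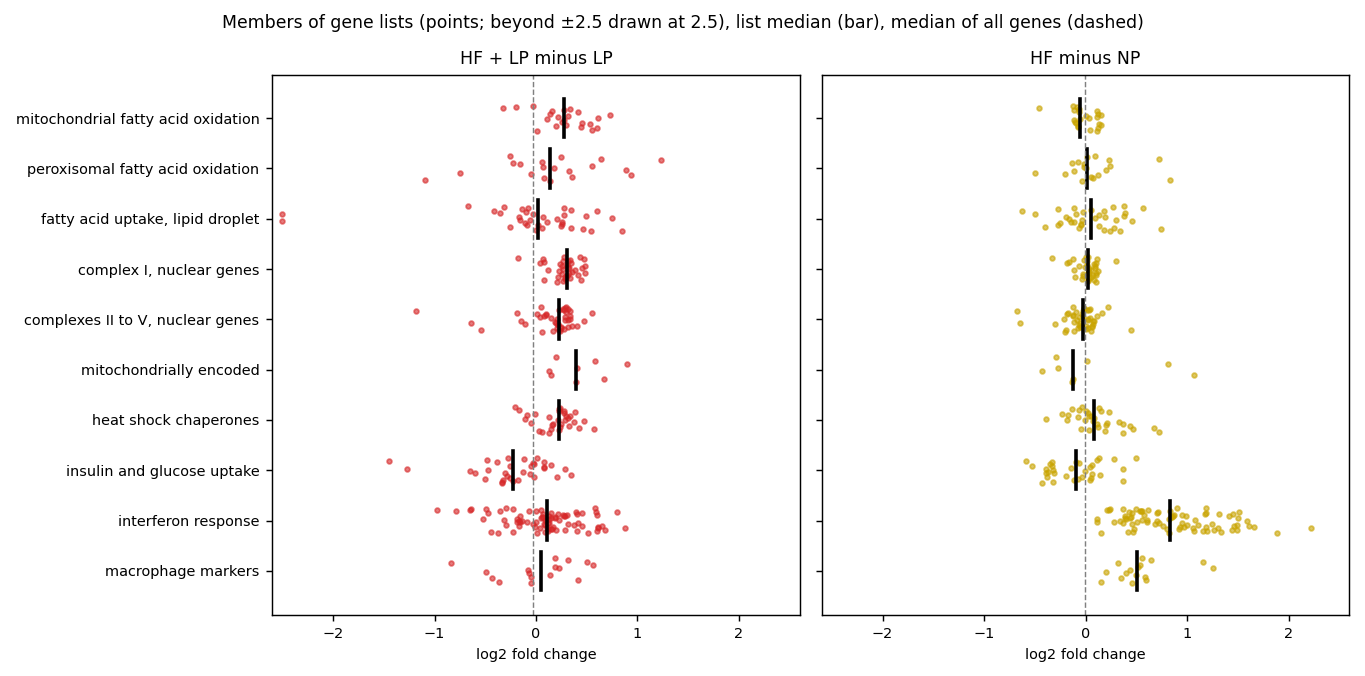
Log2 fold changes of the members of 10 gene lists (points, those beyond ±2.5 drawn at the edge), with the list median (bar) and the median of all genes (dashed), for HF + LP minus LP on the left and HF minus NP on the right. Mitochondrial fatty acid oxidation has a median of 0.28 on the left and −0.05 on the right, whereas the interferon response has a median of 0.11 on the left and 0.83 on the right.

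Many respiratory chain genes were higher as well, by small amounts, and fewer of them without LP mice 13 and 20. Those mice were also the lowest of LP in cardiomyocyte markers, whose part in this was not tested. Of 37 nuclear genes of complex I, 24 were higher at an unadjusted p under 0.05, 0 were lower, and 0 were called, with a median log2 fold change of 0.30. Without LP mice 13 and 20, 5 were higher, with a median of 0.15. Ndufc1 was at 7907 to 10390 normalized counts in LP and 10638 to 12494 in HF + LP (0.31 ± 0.09, adjusted p = 0.107), and Ndufa3 at 5948 to 10424 and 10049 to 12939 (0.45 ± 0.13, adjusted p = 0.115, and 0.25 without those mice). Of 44 nuclear genes of complexes II to V, 19 were higher and 2 lower, and without those LP mice 2 and 2. Atp5e, the epsilon subunit of ATP synthase, was at 4376 to 7401 in LP and 7335 to 10034 in HF + LP (0.55 ± 0.12, adjusted p = 0.0526). Of 8 mitochondrially encoded genes, 5 were higher and 0 lower, with a median of 0.40, and without LP mice 13 and 20 there were 3, with a median of 0.28. mt-Co1, a core subunit of complex IV, was at 42572 to 108700 in LP, with LP mouse 13 the lowest, and at 106150 to 148120 in HF + LP (0.58 ± 0.18, adjusted p = 0.126, and 0.32 without those mice). Heat shock chaperones had 8 of 32 genes higher and 0 lower, with a median of 0.23 (4 and 1 without LP mice 13 and 20). The mitochondrial chaperonin pair Hspd1 and Hspe1 had log2 fold changes of 0.34 ± 0.11 and 0.29 ± 0.09, and neither overlapped between groups.

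Autophagy and mitophagy genes had 10 of 46 higher and 1 lower at an unadjusted p under 0.05, and 3 and 1 without LP mice 13 and 20. Bnip3, a mitophagy receptor of the outer mitochondrial membrane, was at 1767 to 2254 normalized counts in LP and 2104 to 2902 in HF + LP (0.42 ± 0.10, adjusted p = 0.0818). Map1lc3b, the autophagosome protein LC3B, was at 2405 to 3514 and 3193 to 5022 (0.45 ± 0.13, adjusted p = 0.117). In the AMPK and ULK1 list, 3 of 17 genes were higher and 1 was lower, and without LP mice 13 and 20 the counts were 1 and 1. Camkk2, a calcium-dependent kinase that phosphorylates AMPK, was the lower one, at 329 to 398 in LP and 257 to 291 in HF + LP without overlap (−0.40 ± 0.08, adjusted p = 0.0335), and Ulk2, a kinase that starts autophagy, was at 670 to 822 and 791 to 1048 (0.33 ± 0.09, adjusted p = 0.108).

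Genes of glucose uptake and insulin signaling leaned the other way. Of 33 genes, 1 was higher and 8 were lower at an unadjusted p under 0.05, with a median log2 fold change of −0.23, and without LP mice 13 and 20 the counts were 0 and 7 with a median of −0.08. Slc2a1, the basal glucose transporter GLUT1, was at 131 to 291 normalized counts in LP and 102 to 184 in HF + LP (−0.60 ± 0.20, adjusted p = 0.164). Insr, the insulin receptor, was at 493 to 847 and 452 to 644 (−0.33 ± 0.12, adjusted p = 0.184), and Slc2a4, the insulin-responsive GLUT4, had a log2 fold change of −0.13 ± 0.11 (adjusted p = 0.616, and −0.28 without those mice). Glycolysis had 1 of 35 genes higher and 0 lower, and the citrate cycle 3 of 20 higher and 0 lower. Glycolysis without LP mice 13 and 20 had 0 higher and 2 lower, and the citrate cycle 0 and 1. Branched-chain amino acid breakdown had 2 of 25 genes higher and 3 lower, and 0 and 4 without those mice.

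Lipogenic genes leaned lower in HF + LP, less so without LP mice 13 and 20. Of 24 genes, 2 were higher and 11 lower at an unadjusted p under 0.05, with a median of −0.35, and without those mice the counts were 1 and 3 with a median of −0.09. Fasn, the fatty acid synthase, was at 434, 221, 15710, 241, and 2951 normalized counts in LP mice 2, 5, 13, 15, and 20, and at 123 to 202 in HF + LP mice. The nearest mice of the groups did not overlap, at 221 in LP mouse 5 and 202 in HF + LP mouse 2, and the log2 fold change was −4.49 ± 0.88 with all mice (adjusted p = 0.0233) and −0.79 without mice 13 and 20 (adjusted p = 0.231). Acaca, the acetyl-CoA carboxylase that supplies malonyl-CoA, did not overlap between groups either, at 113 to 1635 in LP and 82.3 to 91.9 in HF + LP (−2.47 ± 0.56 with all mice, −0.52 without those 2). Mlxipl, the carbohydrate-responsive transcription factor ChREBP, kept a similar fold change without those mice. It was at 293 to 368 in LP and 151 to 241 in HF + LP, with a log2 fold change of −0.66 ± 0.13 (adjusted p = 0.0233) and of −0.64 without them (adjusted p = 0.129). The 10 adipocyte markers had a median of −4.69 with all mice and −0.41 without LP mice 13 and 20, and the 11 lymphocyte markers tested one of −1.73 and 0.11.

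**Figure D4:**
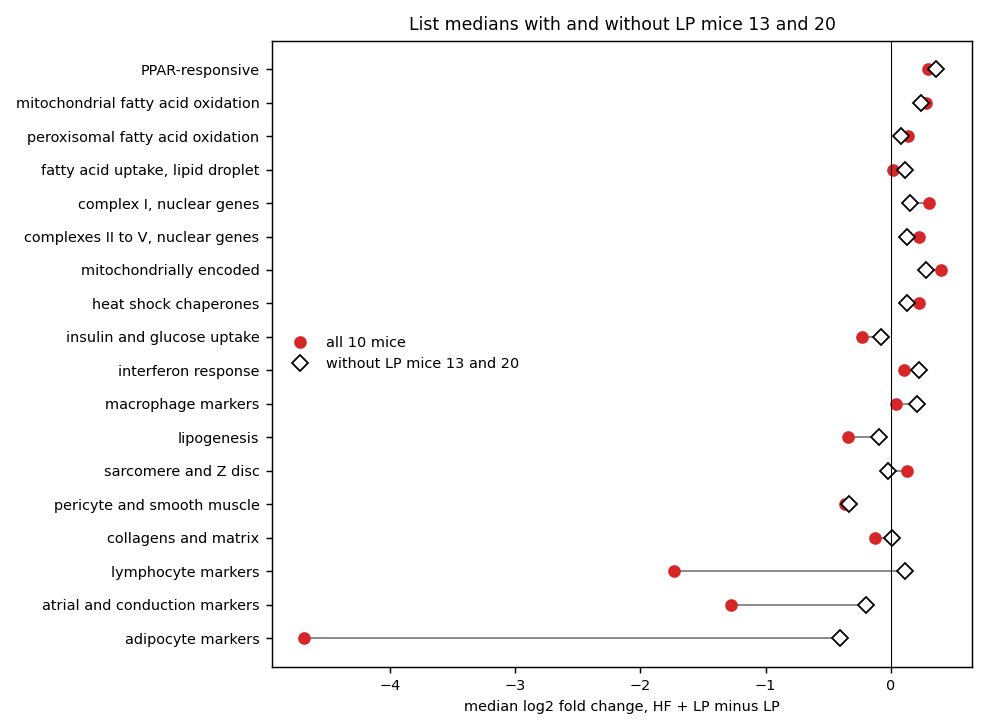
Median log2 fold change (HF + LP minus LP) of 18 gene lists with all 10 mice (filled circles) and without LP mice 13 and 20 (open diamonds). The PPAR-responsive and mitochondrial fatty acid oxidation medians move from 0.30 to 0.36 and from 0.28 to 0.24, while the adipocyte median moves from −4.69 to −0.41 and the lymphocyte median from −1.73 to 0.11.

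Contractile genes were mixed, and none was called. Of 34 sarcomere and Z-disc genes, 4 were higher and 6 lower at an unadjusted p under 0.05, with a median log2 fold change of 0.13 and 21 of the 34 above 0, and without LP mice 13 and 20 the counts were 0 and 10 with a median of −0.02. Fhl2, a LIM protein of the Z disc, was at 13278 to 18027 normalized counts in LP and 16902 to 22952 in HF + LP (0.36 ± 0.13, adjusted p = 0.171, and 0.24 without those mice). Myom2, an M-band protein, was at 5640 to 11047 normalized counts in LP and 2862 to 6273 in HF + LP, with HF + LP mouse 4 the lowest (−0.73 ± 0.19, adjusted p = 0.0894). Myh6, the alpha myosin heavy chain of the adult mouse ventricle, was at 67685 to 100720 in LP and 49071 to 86172 in HF + LP (−0.40 ± 0.13, adjusted p = 0.158). Myh7, the beta heavy chain that is re-expressed in hypertrophy, was at 235 to 1910 and 204 to 924 (−1.08 ± 0.42, adjusted p = 0.212). LP mouse 13, the library with the most atrial transcripts, had the lowest Myh7 of its group, and HF + LP mouse 4 the lowest of all. Nppb, the natriuretic peptide BNP, was at 160 to 571 in LP and 123 to 435 in HF + LP (−0.54 ± 0.42, adjusted p = 0.538, and −0.83 without LP mice 13 and 20). In the hypertrophy and failure list as a whole, 2 of 32 genes were higher and 8 lower (0 and 8 without LP mice 13 and 20).

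Of the 10 pericyte and smooth muscle markers, 4 were lower and 0 higher at an unadjusted p under 0.05, none was called, and 3 had a log2 fold change above 0. The counts without LP mice 13 and 20 were 3 lower and 0 higher. Myh11, the smooth muscle myosin heavy chain, was at 375, 221, 986, 347, and 271 normalized counts in LP mice 2, 5, 13, 15, and 20, and at 130, 108, 146, 172, and 131 in HF + LP mice 1 to 5. The groups did not overlap, LP mouse 13 was the highest, and the log2 fold change was −1.68 ± 0.32 (adjusted p = 0.0213), or −1.20 without LP mice 13 and 20 (adjusted p = 0.0515). Cnn1, calponin 1, and Tagln, transgelin, had log2 fold changes of −1.68 ± 0.50 and −1.28 ± 0.39 with overlapping groups (adjusted p = 0.126 and 0.128), and Tagln was at −0.63 without LP mice 13 and 20. Notch3, a receptor of mural cells, was at 281 to 374 in LP and 162 to 300 in HF + LP (−0.47 ± 0.14, adjusted p = 0.126). Collagen and matrix genes had 4 of 60 higher and 11 lower, and without LP mice 13 and 20 they had 3 and 4. Sparc, a collagen-binding matricellular protein, was at 3785 to 4588 in LP and 4615 to 6937 in HF + LP (0.39 ± 0.11, adjusted p = 0.111), while Ltbp2, a latent TGF-beta binding protein of microfibrils, was at 37.3 to 54.1 and 12.4 to 31.0 (−1.08 ± 0.31, adjusted p = 0.115).

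The interferon response, which defends cells against viral and cytosolic nucleic acids, showed little difference with fat at low protein. Of 81 genes, 1 was higher and 3 were lower at an unadjusted p under 0.05, with a median log2 fold change of 0.11 (3, 0, and 0.22 without LP mice 13 and 20). For HF minus NP, 62 of the same 81 genes were higher and 0 lower, with a median of 0.83, where 5.17% of all genes were higher and 7.91% lower. The difference between these effects, tested as the interaction of fat and protein, had an unadjusted p under 0.05 in 31 of the 81 genes, against 7.17% of all genes tested. It was 13 of the 81 without LP mice 13 and 20, against 3.37% of all genes. Irf7, a transcription factor of this response, was at 107 to 188 normalized counts in LP and 101 to 319 in HF + LP (0.51 ± 0.46, adjusted p = 0.602), and its HF minus NP difference was 1.88 ± 0.45 (adjusted p = 0.0397, and unadjusted p = 0.0434 for the interaction in edgeR's quasi-likelihood test). Tap1, the peptide transporter for MHC class I, was at 105 to 254 in LP and 109 to 119 in HF + LP (−0.65 ± 0.24, adjusted p = 0.194, and −0.41 without LP mice 13 and 20), and LP mouse 20 was the highest. Macrophage markers had 4 of 16 higher and 1 lower at low protein (3 and 0 without LP mice 13 and 20), and 10 of 16 higher and 0 lower at normal protein. Ccr2, the receptor of recruited monocytes, was at 61.6 to 103 in LP and 105 to 153 in HF + LP, without overlap (0.56 ± 0.19, adjusted p = 0.157).

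Fat oxidation genes are given at both casein levels. Of the 23 genes of mitochondrial beta-oxidation, 12 were higher at low protein, whereas at normal protein 0 were higher and 0 lower, with a median log2 fold change of −0.05. The interaction had an unadjusted p under 0.05 in 11 of them, and in 3 of the 23 without LP mice 13 and 20, where 3.37% of all genes passed. Fbp2 had a log2 fold change of 0.87 at low protein and 0.04 at normal protein. Decr1 had log2 fold changes of 0.73 and 0.15, Ech1 of 0.94 and 0.12, and Pex11a of 0.89 and 0.20. In each of these genes the LP mean also lay below the NP mean. Mean normalized counts in NP, LP, HF, and HF + LP were 5124, 4209, 5685, and 6987 for Decr1. They were 14878, 11558, 16151, and 22111 for Ech1, 932, 704, 1074, and 1303 for Pex11a, and 744, 600, 767, and 1097 for Fbp2. LP and NP were not compared by a test. These 4 genes were named for their small p at low protein, which is part of the interaction, so they are no independent test of it, and for each the adjusted p of the interaction was 0.614. In the interaction as a whole, 0 genes were called by edgeR and 1003 had an unadjusted p under 0.05 (7.17%). The smallest adjusted p was 0.258, for Gm42972, whose log2 fold change was −0.85 at low protein and −1.82 at normal protein. limma voom called 0, and DESeq2 called 1 gene, Bmp10, whose high values are those of LP mice 13, 15, and 20.

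Of the 7 called genes that fell with fat at low protein, 6 were also called lower at normal protein. Most of these low-protein calls rested on single mice too. With each of the 10 mice left out in turn, Neat1 and Gm42432 lost their call at low protein 8 times. Lrrc4b lost it 7 times, Gm38380 6, Gm42972 4, Kmt2d 2, and 5430431A17Rik 0 times. HF against NP had 37 called genes (0.264% of those tested), of which 6 were among the 14 called here, 42.9% of the 14 and 16.2% of the 37. These 6 were 5430431A17Rik, Kmt2d, Gm42972, Gm38380, Gm42432, and Neat1. All 37 genes had the same sign in HF + LP against LP, and 32 of them had an unadjusted p under 0.05 there. Over all genes, 6.26% were higher and 9.66% lower at that p. In HF minus NP, 5430431A17Rik differed by −2.21 ± 0.18, Kmt2d by −0.89 ± 0.11, and Neat1 by −1.20 ± 0.15 on the log2 scale. The seventh lower gene, Lrrc4b, differed there by −0.94 ± 0.23 without overlap (adjusted p = 0.039). All 14 genes had the same sign at both casein levels, and 11 of them had an unadjusted p under 0.05 in HF against NP. Of all genes, 5.17% were higher and 7.91% lower at that p in HF against NP. None of the 7 called genes that rose was called at normal protein. Rbp7 differed there by 0.72 ± 0.17 (adjusted p = 0.036).

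**Figure D5:**
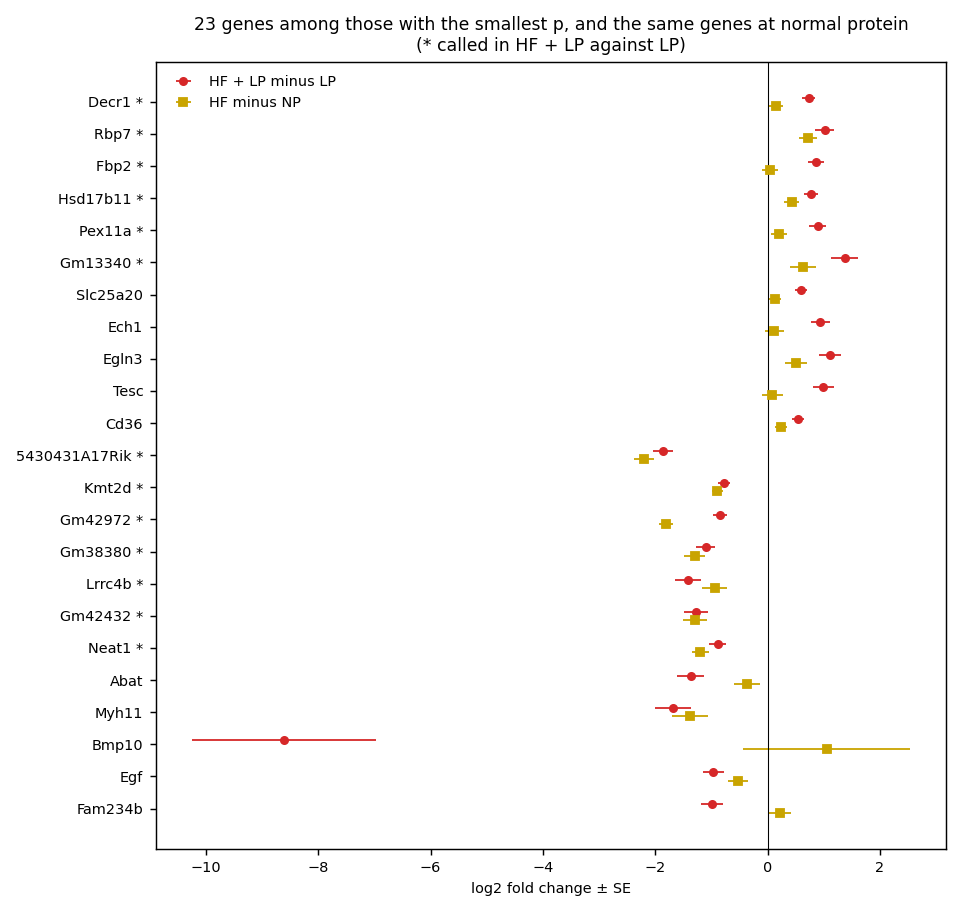
Log2 fold change ± SE of 11 higher and 12 lower genes among those with the smallest p, for HF + LP minus LP (circles) and HF minus NP (squares), with asterisks on the genes called in HF + LP against LP. The called lower genes are negative at both casein levels (5430431A17Rik at −1.86 and −2.21), while Fbp2, Decr1, Ech1, and Tesc lie between 0.04 and 0.15 at normal protein.

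Within HF + LP, the 2 heaviest mice had the most Decr1, an order looked at after the values were seen and not shared by all higher genes. Mice 4 and 5, the heaviest at 56.1 and 52.5 g, had 7772 and 8347 normalized counts of Decr1, while mouse 3, the lightest at 41.2 g, had 5564. Fbp2 and Ech1 were also highest in mice 4 and 5 and lowest in mouse 3. Rbp7, however, was highest in mouse 2 (574), Gm13340 in mouse 3 (448), and Rbp7 and Hsd17b11 were lowest in mouse 1 (345 and 822). In LP the heaviest mouse, mouse 13 at 36.9 g, had the lowest Decr1 (3553) and the lightest, mouse 15 at 29.9 g, the highest (4790). No correlation is given over 5 mice, and mouse 3 was also the HF + LP library with the most atrial transcripts, whose part in this was not tested.

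Of 48 pathway lists examined, 4 held a called gene, among them PPAR-responsive genes and mitochondrial and peroxisomal fatty acid oxidation. These lists held 3, 1, and 1 called genes. Lists can share genes, and Decr1 counts in both the PPAR-responsive and the mitochondrial list, so these are not separate results. None of the 13 cell type marker lists held one. Cytosolic ribosomal proteins had 14 of 78 genes higher and 0 lower at an unadjusted p under 0.05, with a median of 0.11, the same median as in HF minus NP, and 5 of them were higher without LP mice 13 and 20. MHC class I genes had 0 of 24 higher and 2 lower, a share near that of all genes, and 0 and 0 without LP mice 13 and 20, where their median turned from −0.15 to 0.09.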

How the data were processed

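Left ventricles of 20 mice were sequenced as QuantSeq 3′ libraries. Alignment was done by the authors in BlueBee, and the deposited values are raw counts per Ensembl gene. The submitters' processing notes name GRCm38 and DESeq2 1.22.2, and the annotation and counting program are not given in the sources used here. The table holds 15956 genes, and no gene in it has fewer than 60 counts over all libraries. Symbols and coordinates were taken from GENCODE on GRCm38 and were found for 15917 genes.

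The counts were fitted with edgeR 4.0.16 under R 4.3.3 (filterByExpr by group, TMM, quasi-likelihood fit over all 20 libraries), with Benjamini-Hochberg adjustment. A call needed a normalized count averaging over 50 and an adjusted p under 0.01. Normalized counts were scaled to the mean effective library size, and the SE of a log2 fold change came from its F statistic. On counts simulated for this comparison over 13991 genes, 173 of 200 genes changed by a log2 fold change of 1.5 were recovered (86.5%), and 1 unchanged gene was called. The simulated spread was the same in all groups, with no mice that stood apart. Of the called genes named here, only 5430431A17Rik changed by more than 1.5, so the share recovered does not describe smaller changes.

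Named genes were the 12 of smallest p in each direction, the called genes, and up to 4 members with the smallest p and up to 2 defining members of each list described. Some genes that this rule takes in are not reported here. The members, lists, and comparisons were chosen with earlier results of these data known. Each library is 1 mouse, and p-values measure the spread between these mice. Alternatives were RLE size factors, DESeq2 1.42.0, limma 3.58.1 voom with quality weights, robust dispersion, other filters and thresholds, the 2 groups alone, a block for the animal number, a covariate for the number that library names carry, and each mouse left out. Leaving out LP mice 13 and 20 together was chosen after seeing the data.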

Additional observations from a re-analysis of the deposited data

Results flagged for a closer look

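Single mice that lay far from the rest of their group by Dixon's test are given here, and chance alone would mark about 1 in 20 groups tested. Both groups were tested for every named gene, the library measures, and some marker lists. Several of these marks are therefore expected by chance. LP mouse 13 was the highest of its group in Myh11 (986 normalized counts, against 221 to 375 in the others), Igfbp3 (324), Fasn (15710), Scd1 (12305), Acaca (1635), Tagln (164), and Ucp1 (6037), and the lowest in Scp2 (572) and Hsph1 (159, against 309 to 344). LP mouse 20 was the highest in Trbc2, a T cell receptor constant gene (6009, against 13.3 to 39.6) and in summed lymphocyte markers (1096 CPM), and the lowest in Myh6 (67685). In LP mouse 5 Hsd17b11 was low (557, against 593 to 605), and in LP mouse 2 Ulk2 was high (822).

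In HF + LP, mouse 3 was the highest in Scd1 (215 normalized counts), Cnn1 (47.5), Tagln (58.0), Adipoq (46.6), Ucp1 (188), Nppa (57473), and Myl7 (13176), and in the summed adipocyte markers (33.7 CPM) and atrial and conduction markers (5542 CPM). HF + LP mouse 1 was the highest in Igfbp3 (89.6), and HF + LP mouse 4 the lowest in Myom2 (2862, against 5817 to 6273). What gave these libraries their values was not tested.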

How the results depend on the processing

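The 13 called genes that are named kept their direction in each of the 22 alternatives, and 5430431A17Rik lost its call only with edgeR on the 2 groups alone and with the animal number as a block. The number of called genes, 14, was 45 at an adjusted p under 0.05, 84 with DESeq2 on all groups, 36 with DESeq2 on the 2 groups alone, 9 with limma voom, 0 with edgeR on the 2 groups alone, 5 with the library number as a covariate, 4 without LP mice 13 and 20, and 1 to 16 without 1 mouse. Genes at an unadjusted p under 0.05 (2227) numbered 53 when the adjusted p was used, 1466, 1457, and 1407 with DESeq2 on the 2 groups, voom, and edgeR on the 2 groups, 1060 without LP mice 13 and 20, and 1731 to 3018 without 1 mouse. Pathway lists with a called member (4) numbered 8, 14, 8, 2, 0, and 2 at an adjusted p under 0.05, with DESeq2 on all groups, DESeq2 on the 2 groups, voom, edgeR on the 2 groups, and the library number, 0 without LP mice 13 and 20, and 0 to 5 without 1 mouse. HF against NP (37) gave 157, 163, and 242 calls at an adjusted p under 0.05, with DESeq2, and with voom, and 20 to 32 without 1 mouse. The interaction (0) gave 1 call with DESeq2 and 0 without any 1 mouse.

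LP and HF + LP share animal numbers 2 and 5, but these are different mice, and the deviations of same-numbered mice correlated at −0.0179 and 0.375, so the numbers are not taken to pair them. With the animal number as a replicate block, 0 genes were called, 723 had an unadjusted p under 0.05 (55.2% of them higher, against 39.3% without the block), 0 pathway lists held a call, and HF against NP had 2 calls. Under that block the log2 fold change turned to 3.145 for Bmp10, 0.094 for Pml, 0.10 for Tap1, 0.15 for Nlrc5, and 0.088 for Trbc2, and without LP mice 13 and 20 to 0.17 for Trbc2 and 0.57 for Ucp1. Without 1 mouse, the difference in total counts ranged from −945474 to 1471590 and that in genes detected from −46.6 to 5.6. The cause of these shifts was not tested.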
